A study of Trichoderma reesei RUT C-30 with 16 samples.

Results

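The effect of deleting *res2* in cultures fed with glucose was examined in 8 of the 16 RNA-seq libraries of the series, namely the 4 libraries of the deletion strain Δ*res2* and the 4 of its parent Rut-C30 that were grown on glucose. The members are libraries, chosen by the strain, carbon source and treatment given in their labels. Each strain was cultivated in glucose fed-batch without DTT (glucose control, GC) or with 10 mM DTT during the last 2 h (glucose DTT, GD), with 2 cultures for each of the 4 groups. The RNA was taken from mycelium after 42 h of feeding according to the methods of the study, or 48 h according to the description of the series. Δ*res2* is a single transformant in which a hygromycin resistance cassette (*hph*) took the place of *res2* after cutting with CRISPR-Cas9, so the deletion and any other feature of this clone cannot be told apart. Rut-C30 is a cellulase hyperproducer of *Trichoderma reesei* with a truncated *cre1*, the gene of the carbon catabolite repressor, and Δ*res2* carries that allele too. The 8 lactose libraries of the same strains (lactose control, LC, and lactose DTT, LD) were used only to set values beside those of glucose.

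*T. reesei* secretes large amounts of enzymes that break down plant cell walls, and their genes are switched on by inducers such as lactose or cellulose and are kept low on glucose. Secreted proteins fold in the endoplasmic reticulum (ER), where chaperones and disulfide isomerases act, and misfolded proteins are sent to ER-associated degradation (ERAD). DTT breaks disulfide bonds and thereby loads this machinery, which is called secretion stress. RES2 is a transcription factor that is known from *Neurospora crassa* for a role in cellulase secretion. The comparison asks which transcripts depend on its gene when no cellulase inducer is fed.

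The Δ*res2* glucose libraries held 20351784 to 24655180 counts on genes, against 25183831 to 32192329 in those of Rut-C30, so that every Δ*res2* library was shallower than every Rut-C30 library. The lactose libraries held 25377536 to 29623685 counts in Δ*res2* and 26836809 to 35679977 in Rut-C30. Values below are normalized counts (scaled with TMM factors to a common library size), and the 2 numbers of a group are its 2 cultures. A log2 fold change is Δ*res2* over Rut-C30 over all 8 libraries with DTT as a covariate, and its error is the standard error of the fit. In these bulk libraries, fewer hyphal cells of a kind and less RNA per cell cannot be told apart.

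A single gene, TrA1112W (chromosome I from 3588003 to 3589547 of the QM6a genome), fell in Δ*res2* past the test. In raw counts it had 0 and 2 (GC) with 0 and 0 (GD) in Δ*res2*, against 2900 and 3281 (GC) with 7006 and 6426 (GD) in Rut-C30. No library of Δ*res2* came near any of Rut-C30. Pooled over the libraries and scaled to their sizes, the Rut-C30 level was 7308 times that of Δ*res2* (95% exact binomial interval 2023 to 60348, which covers counting error only). Its log2 fold change was -12.43 ± 0.78, and the quasi-likelihood test of edgeR gave an adjusted p of 0.00182 (Benjamini-Hochberg). Among the genes with at least 10 counts in every library of one strain, it was the 1 gene with 3 counts or fewer in every library of the other. The lactose libraries gave 1 and 2 (LC) with 0 and 0 (LD) raw counts in Δ*res2*, against 3802 and 3177 (LC) with 7046 and 6534 (LD) in Rut-C30. No source used here pairs *res2* with a gene name of the count tables, and TrA1112W was taken as the deleted gene from these counts, so they are not an independent check of the strain labels. With 1 library left out, its log2 fold change in edgeR was between -15.19 and -11.87. The call was lost only in the smaller fits that follow, in which the log2 fold change stayed similar in size. It was -11.12 in GC alone (adjusted p = 0.262), -15.44 in GD alone (adjusted p = 0.479) and -11.39 without both Δ*res2* libraries numbered 1 (adjusted p = 0.0761, chosen after seeing the data).

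The 4 counted genes on either side of TrA1112W, between 3566838 and 3610079 on chromosome I, were not called in glucose. Their log2 fold changes lay between -0.65 (TrA1107C) and 0.28 (TrA1111C). The next gene on the right, TrA1113C (chromosome I from 3590959 to 3593313), had 929 and 1119 (GC) with 3134 and 3032 (GD) in Δ*res2*, against 1254 and 2422 (GC) with 3545 and 3781 (GD) in Rut-C30. Its 2 cultures of Δ*res2* lay below both Rut-C30 cultures in GC and in GD, and its log2 fold change was -0.55 ± 0.27. In lactose, TrA1113C fell in Δ*res2* (log2 fold change -1.42 ± 0.22, adjusted p = 0.00864 from edgeR). Of the other neighbours, TrA1107C and TrA1108W rose in lactose, by 0.42 (adjusted p = 0.00462) and 0.56 (adjusted p = 0.00247, edgeR) on the log2 scale, and the rest were not called. The gene after it, TrA1114W (TRIREDRAFT_58170), had 546 and 1176 (GC) with 5428 and 6348 (GD) in Δ*res2*, against 1586 and 1726 (GC) with 9294 and 4579 (GD) in Rut-C30. The strains were apart in GC only, and the log2 fold change was -0.59 ± 0.35.

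Across the genome, the strain effect in glucose was small against its error. Of 8966 genes tested, 1 was called at an adjusted p under 0.05 (0.0112%) and none of the called genes was higher in Δ*res2* (0%). At an unadjusted p under 0.05 there were 340 genes (3.79%), with 176 higher (1.96%) and 164 lower (1.83%) in Δ*res2*, DESeq2 called 12 genes, 5 higher and 7 lower, and limma's voom with a weight for each library called TrA1112W alone. TrA1112W also passed the stricter limits that the study used (an adjusted p below 0.005 at a log2 fold change of more than 2 in size, with a mean above 100 normalized counts). The median log2 fold change was 0.01, and 538 genes lay beyond 1 in either direction (285 above and 253 below). The median standard error was 0.34, the 95% interval lay within a log2 fold change of 1 in either direction for 3833 genes (42.8%), and within 2 for 7675 genes (85.6%).

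Counted without the test, the 4 Δ*res2* libraries lay wholly above the 4 Rut-C30 libraries for 44 genes (0.491%) and wholly below them for 60 genes (0.669%). Among those with a mean of at least 100 normalized counts, the 5 of each direction with the smallest unadjusted p are described here. None of them except TrA1112W was called (adjusted p = 0.932 for each, edgeR), and no source used here gives the others a function. TrE1173C (chromosome V from 3769987 to 3770381) had 1129.8 and 704 (GC) with 967 and 754 (GD) in Δ*res2*, against 276 and 408 (GC) with 375 and 306 (GD) in Rut-C30. Its level in Δ*res2* was above that of Rut-C30 with and without DTT, and the log2 fold change was 1.38 ± 0.25. TrB0865C had 200.5 and 149.7 (GC) with 167 and 159 (GD) in Δ*res2*, against 62.5 and 56.3 (GC) with 91.98 and 41.2 (GD) in Rut-C30. Both groups of Δ*res2* were close together and apart from Rut-C30, with a log2 fold change of 1.42 ± 0.35. The most abundant of these genes, TrC0493C, had 20818 and 9669 (GC) with 10759 and 14902 (GD) in Δ*res2*, against 4363 and 6344 (GC) with 7186 and 2747 (GD) in Rut-C30. The gap to the nearest Rut-C30 culture was smaller than the distance between the 2 GC cultures of Δ*res2*, and the log2 fold change was 1.44 ± 0.40. TrF1051C had 419 and 387 (GC) with 408 and 364 (GD) in Δ*res2*, against 181 and 226 (GC) with 103 and 239 (GD) in Rut-C30 (log2 fold change 1.08 ± 0.31). For TrF0773C, with 1164 and 978 (GC) with 796 and 625 (GD) in Δ*res2*, against 546 and 608 (GC) with 415 and 584 (GD) in Rut-C30, the lowest Δ*res2* culture was barely above the highest Rut-C30 culture (log2 fold change 0.70 ± 0.22).

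Among the genes that were lower in every Δ*res2* library, TrB0934W (chromosome II from 2930641 to 2931445) had 528 and 325 (GC) with 344 and 393 (GD) in Δ*res2*, against 1374 and 873 (GC) with 1589 and 1668 (GD) in Rut-C30. It was the gene with the smallest p after TrA1112W, and its log2 fold change was -1.77 ± 0.28 (95% interval -2.41 to -1.12). DESeq2 called TrB0934W (adjusted p = 0.000294), TrE1173C (adjusted p = 0.00668) and TrB0865C (adjusted p = 0.0480) among these genes, and edgeR called TrB0934W (adjusted p = 0.00613) and TrE1173C (adjusted p = 0.0429) when all 16 libraries were fitted together. In lactose the direction of TrB0934W was opposite, since it rose there in Δ*res2* by a log2 fold change of 0.62 ± 0.10 (adjusted p = 0.00187, edgeR). The long gene TrA1066W (chromosome I from 3431435 to 3438803) had 2161 and 3364 (GC) with 3813 and 3154 (GD) in Δ*res2*, against 7082 and 4069.9 (GC) with 8454 and 6804 (GD) in Rut-C30, with a log2 fold change of -1.07 ± 0.27. TrC1544W had 176 and 233 (GC) with 134 and 235 (GD) in Δ*res2*, against 366 and 417 (GC) with 859 and 406 (GD) in Rut-C30, and one GD culture of Rut-C30 stood above the others (log2 fold change -1.36 ± 0.36). TrA0479W had 1173 and 825 (GC) with 1334 and 1015 (GD) in Δ*res2*, against 1657 and 1586 (GC) with 2215 and 2005 (GD) in Rut-C30. Its groups were narrow and its log2 fold change was -0.77 ± 0.21, and in lactose it fell in Δ*res2* by 0.27 on the log2 scale (adjusted p = 0.0261, edgeR).

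**Figure D1:**
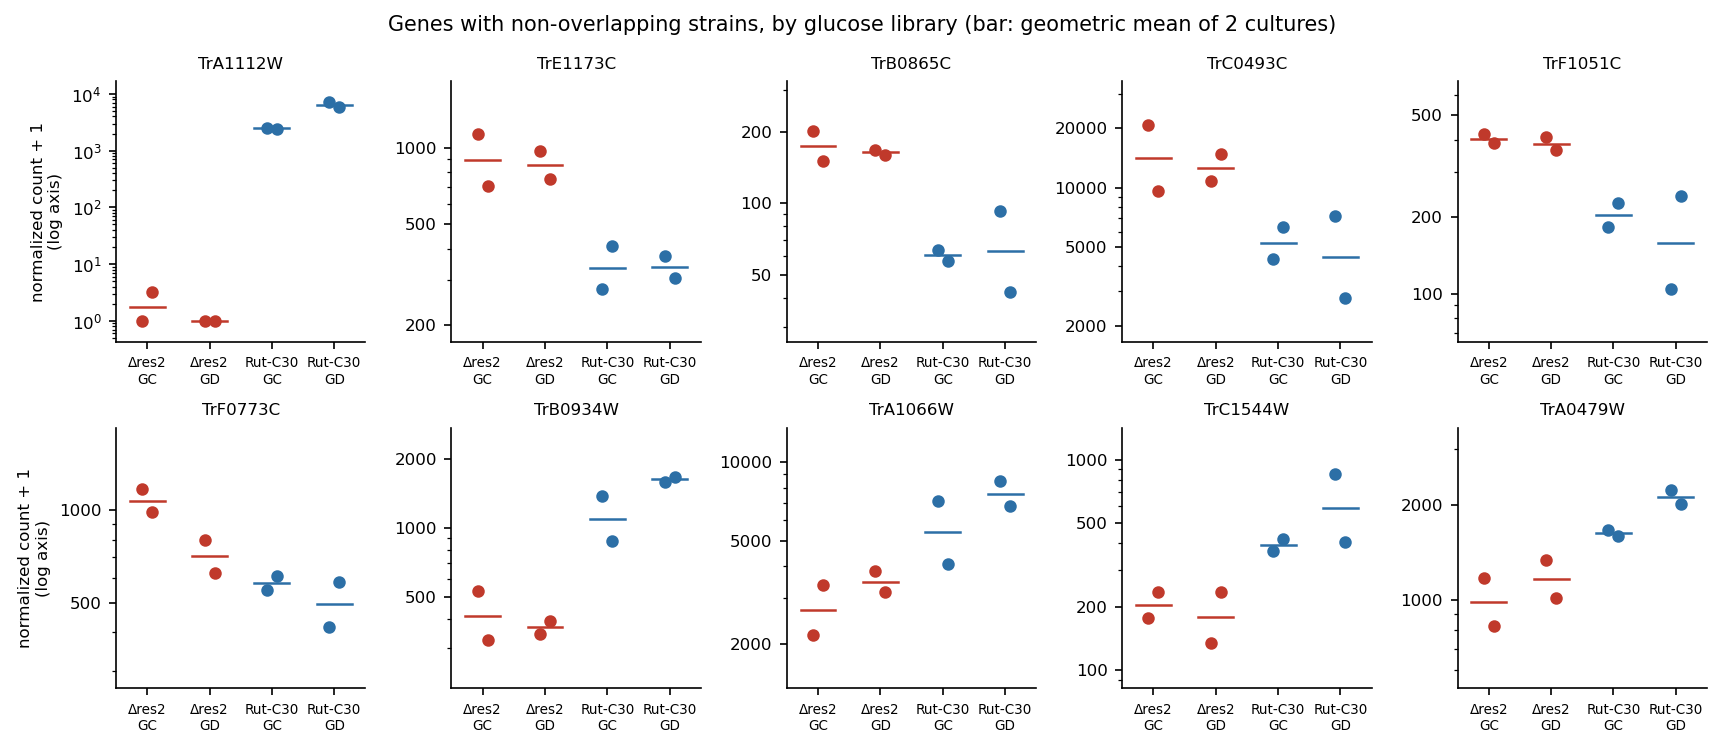
Normalized counts plus 1 (vertical axes, log scale) of TrA1112W and of the 9 further genes that did not overlap between the strains, in the 8 glucose libraries, with Δ*res2* in red and Rut-C30 in blue. Points are cultures and bars are the geometric means of 2 cultures. TrA1112W has 0 to 2.17 in Δ*res2*, and the other genes differ by log2 fold changes of 0.70 to 1.77 in size.

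A gene that responds to DTT can differ between the strains within GC and within GD and still overlap over all 8 libraries. Within both conditions, the strains were apart in the same direction for 569 genes (6.35%). The Δ*res2* cultures were above the Rut-C30 cultures for 268 of them (2.99% of all genes) and below for 301 (3.36%), and for 143 genes (1.59%) the direction was opposite in GC and GD. TrC1550C and the other genes of this paragraph except TrD1347W were chosen after their values were seen. TrC1550C (TRIREDRAFT_59402, chromosome III from 5202590 to 5203234) lies beside the β-glucosidase gene *bgl1* (TrC1551C). It had 1460.3 and 945 (GC) with 64.4 and 65.6 (GD) in Δ*res2*, against 119.8 and 119 (GC) with 27.3 and 20.1 (GD) in Rut-C30, so that Δ*res2* was above Rut-C30 in each condition. Its log2 fold change was 2.45 ± 0.45 with no call in the fit of the glucose libraries, and DESeq2 called it (adjusted p = 0.000151), as did edgeR in the fit of all 16 libraries (adjusted p = 0.000765). In lactose its log2 fold change was 0.19 ± 0.11. TrD1347W (TRIREDRAFT_124198, chromosome IV from 4211366 to 4211749), which encodes a putative secreted protein of unknown function, had 17.2 and 8.68 (GC) with 305 and 393 (GD) in Δ*res2*, against 50.2 and 365 (GC) with 1686 and 4061 (GD) in Rut-C30. The Δ*res2* cultures were below those of Rut-C30 in each condition. The log2 fold change of -3.47 ± 0.66 was not called by edgeR (adjusted p = 0.932) and was called by DESeq2 (adjusted p = 0.000127), and in lactose it was 0.10 ± 0.21. TrC1429C (TRIREDRAFT_59151) had 4339 and 3279 (GC) with 129 and 675 (GD) in Δ*res2*, against 941 and 466 (GC) with 126 and 115 (GD) in Rut-C30, with a log2 fold change of 2.09 ± 0.51. TrB1808W (TRIREDRAFT_23292) had 593 and 262 (GC) with 2233 and 1348 (GD) in Δ*res2*, against 1313 and 1236 (GC) with 3788 and 6871 (GD) in Rut-C30, with a log2 fold change of -1.57 ± 0.34. DESeq2 called both at an adjusted p of 0.0480.

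Genes were then grouped by function. The lists hold the genes that the study names and the genes of Gene Ontology terms in its supplementary tables, and since the study chose them on these samples they are not independent evidence of a direction. No member of any list was called in glucose, beside 0.0112% of all genes. Over all genes the median log2 fold change was 0.01 and 50.9% were above 0. Members named below that are not among the 3 most abundant of their list were chosen after their values were seen.

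The list of plant cell wall degrading enzymes had 23 members, of which 8 had a log2 fold change above 0 and 15 below it (median -0.26). Their summed share of the normalized counts was 0.612% and 0.477% (GC) with 0.0337% and 0.0327% (GD) in Δ*res2*, against 0.154% and 1.53% (GC) with 0.0450% and 0.0536% (GD) in Rut-C30. The first Rut-C30 culture in GC was far below the second, with both Δ*res2* cultures between them. The main cellobiohydrolase gene *cbh1* (*cel7a*, TrG0022C) had 41778 and 32001 (GC) with 520.3 and 1065 (GD) in Δ*res2*, against 902 and 123686 (GC) with 2089 and 545 (GD) in Rut-C30. Its log2 fold change of -0.74 ± 1.07 had a 95% interval of -3.20 to 1.71, so that neither a much higher nor a much lower level in Δ*res2* was excluded. *bgl1* (TrC1551C), the gene of the main extracellular β-glucosidase, had 1042 and 428 in the GC cultures of Δ*res2*, against 11.4 and 904 in those of Rut-C30, and its log2 fold change was -0.24 ± 1.27. The list member TrG1206C had 22565 and 11972 in the GC cultures of Δ*res2*, against 372 and 45755 in those of Rut-C30. For the β-xylosidase gene *bxl1* (TrC1552C), with 9501 and 9939 in the GC cultures of Δ*res2*, against 289 and 22495 in those of Rut-C30, Δ*res2* again lay between the Rut-C30 cultures. The xylanase gene *xyn3* (TrC0667W) had 154 and 112 in the GC cultures of Δ*res2*, against 0 and 82.7 in those of Rut-C30, so that both Δ*res2* cultures were above those of Rut-C30. The list also holds *xyr1* (TrC0438W), which encodes the main activator of these genes and is no enzyme, and which had 12686 and 25233 (GC) with 2962 and 4762 (GD) in Δ*res2*, against 8801 and 25322 (GC) with 4792 and 7562 (GD) in Rut-C30 (log2 fold change -0.26 ± 0.45). The arabinofuranosidase gene *abf2* (TrC0659C) was the 1 member with an unadjusted p under 0.05, with 670.1 and 804 (GC) with 255 and 397 (GD) in Δ*res2*, against 2839.5 and 1562 (GC) with 254 and 1338 (GD) in Rut-C30 and a log2 fold change of -1.43 ± 0.49. The median of the list was 0.56 without the second GC culture of Rut-C30 and -0.57 without the first, so the direction of the list turned with 1 library. Only 1 of the 23 intervals lay within a log2 fold change of 1 in either direction, and 6 within 2.

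Of 8 transcriptional regulators, 6 had a log2 fold change below 0 (median -0.58), and 2 had an unadjusted p under 0.05. *vib1* (TrE0539W), which encodes a transcription factor needed for cellulase expression, had 1354 and 1873 (GC) with 179.6 and 255 (GD) in Δ*res2*, against 1555 and 3985 (GC) with 628 and 597 (GD) in Rut-C30. The strains were apart in GD and overlapped in GC. The log2 fold change of *vib1* was -1.13 ± 0.34 in glucose, and in lactose it fell in Δ*res2* by 0.32 on the log2 scale (adjusted p = 0.00871, edgeR). The homeobox regulator gene *hom3* (TrA1664W) had 494 and 580.3 (GC) with 237 and 338 (GD) in Δ*res2*, against 444 and 1086 (GC) with 673 and 626 (GD) in Rut-C30, with a log2 fold change of -0.84 ± 0.33. *pro1* (TrA1632W), a Zn2Cys6 regulator gene, had 249 and 582 in the GD cultures of Δ*res2*, against 3052 and 1250.2 in those of Rut-C30. Its log2 fold change was -1.40 ± 0.62 in glucose, and in lactose it fell by 0.30 on the log2 scale (adjusted p = 0.0153, edgeR). The most abundant member, the Zn2Cys6 gene TrC1121W (TRIREDRAFT_55272), had 26259 and 38707 (GC) with 498 and 1267 (GD) in Δ*res2*, against 109732 and 6214 (GC) with 33163 and 415 (GD) in Rut-C30. Its 2 Rut-C30 cultures were far apart in both conditions, and the log2 fold change of -2.54 ± 1.54 had a 95% interval of -6.09 to 1.01. Of the 2 members above 0, the Zn2Cys6 gene TrB1006C is among the 3 most abundant of the list. It had 4431 and 1973 (GC) with 259 and 795 (GD) in Δ*res2*, against 1092 and 1781 (GC) with 772 and 605 (GD) in Rut-C30. Its Δ*res2* cultures were above those of Rut-C30 in GC only, and its log2 fold change was 0.39 ± 0.50. With 1 library left out, the median of the list was -0.84 to -0.37.

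For genes of ER folding and ERAD the glucose libraries gave closer limits. Of 17 members, 13 had a log2 fold change below 0 and 4 above it, the median was -0.30, and it was -0.37 to -0.22 with 1 library left out. None had an unadjusted p under 0.05. The chaperone gene *bip1* (TrG0399C), a marker of secretion stress, had 18394 and 14792 (GC) with 439094 and 463082 (GD) in Δ*res2*, against 24501 and 21329 (GC) with 818336 and 521182 (GD) in Rut-C30. In each condition the Δ*res2* cultures were below those of Rut-C30, and the strain effect on *bip1* was -0.52 ± 0.40 (95% interval -1.44 to 0.40). *pdi1* (TrA0675W), the gene of a protein disulfide isomerase, had 19581 and 12249 (GC) with 99401 and 163824 (GD) in Δ*res2*, against 19516 and 14238 (GC) with 244092 and 173031 (GD) in Rut-C30, with a log2 fold change of -0.37 ± 0.39. The ERAD gene TrA0270C had a log2 fold change of -0.18 ± 0.31. *hrd1* (TrE0315W), which encodes the ubiquitin ligase of ERAD, had 1715 and 2877 (GC) with 12792 and 13546 (GD) in Δ*res2*, against 2977 and 3152 (GC) with 17252 and 16055 (GD) in Rut-C30 (log2 fold change -0.38 ± 0.25). All 17 intervals lay within a log2 fold change of 2 in either direction, and 10 within 1. In lactose, where both strains were measured in 1 number series, the median of these genes was 0.04 and 1 of the 17 was called, higher in Δ*res2*, beside 9.52% of all genes called higher.

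The glycosyltransferase and protein glycosylation genes, whose products attach sugars to secreted proteins, had a median of -0.25 over 15 members, 7 above 0 and 8 below it. The O-mannosyltransferase gene *pmt1* (TrG0781W) had 2507 and 3689 (GC) with 18526 and 25055 (GD) in Δ*res2*, against 4119 and 3434 (GC) with 26422 and 24472 (GD) in Rut-C30 (log2 fold change -0.25 ± 0.26). TrG1054W was the 1 member with an unadjusted p under 0.05, with 213.1 and 272.3 (GC) with 914 and 1393 (GD) in Δ*res2*, against 368 and 402 (GC) with 2106 and 1845 (GD) in Rut-C30. The Δ*res2* cultures were below the Rut-C30 cultures in each condition, and its log2 fold change was -0.72 ± 0.21. TrA1996C, a member of glycosyltransferase family 32, had the highest value of the list, 2.39 ± 1.77, which came from 1 culture, with 2807 and 81.1 in the GD cultures of Δ*res2*, against 25.3 and 119 in those of Rut-C30. Without that culture, the first of Δ*res2* in GD, its log2 fold change was -0.26.

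Genes of ribosome biogenesis and of amino acid metabolism had more values above 0 than below. In ribosome biogenesis 17 of 20 members were above 0 (85%, against 50.9% of all genes), with a median of 0.25 and a highest value of 0.73, and no member had an unadjusted p under 0.05. The median was -0.01 in GC and 0.56 in GD. The rRNA processing gene TrB0953C had 48126 and 18823 (GC) with 9777 and 8975 (GD) in Δ*res2*, against 19412 and 22854 (GC) with 3848 and 8916 (GD) in Rut-C30, and the first Δ*res2* culture in GC stood above the other GC cultures. *cbf5* (TrD0762C), the gene of the pseudouridine synthase of H/ACA snoRNPs, had 4237 and 2653 (GC) with 591 and 737 (GD) in Δ*res2*, against 3208 and 2543 (GC) with 529 and 673 (GD) in Rut-C30 (log2 fold change 0.20 ± 0.23). The snoRNP gene *snu13* (TrG0592C) had a log2 fold change of 0.73 ± 0.33. Between the Δ*res2* duplicates the list differed by a median of -0.48 in GC and -0.57 in GD (second over first culture, log2), which is larger in size than the strain effect, and without both first cultures of Δ*res2* the median strain effect was 0.08. In lactose it was 0.34, and the 2 of 20 genes called higher there are close to the 9.52% of all genes called higher.

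Of 40 genes of amino acid and GABA metabolism, 30 were above 0 (75%), with a median of 0.29 that was 0.21 to 0.34 with 1 library left out and 0.15 without both first cultures of Δ*res2*. The branched-chain amino acid gene *ilv5* (TrB1620C) had 22261 and 16942 (GC) with 52456 and 13093 (GD) in Δ*res2*, against 13163 and 9800.5 (GC) with 27293 and 15303 (GD) in Rut-C30. The first Δ*res2* culture in GD was the highest of all, and the log2 fold change was 0.70 ± 0.46. The homoserine dehydrogenase gene *hom6* (TrG0494W) had 2149 and 1474 (GC) with 2952 and 516 (GD) in Δ*res2*, against 1122 and 1368 (GC) with 556 and 581 (GD) in Rut-C30. In GD, again, the first Δ*res2* culture alone was high. The largest value of the list belonged to TrE0564C (TRIREDRAFT_73536), at 3.45 ± 1.16, with 1433 and 515 (GC) with 10086 and 126 (GD) in Δ*res2*, against 209.7 and 148 (GC) with 323 and 144 (GD) in Rut-C30. In GC the Δ*res2* cultures were above those of Rut-C30, and in GD one was far above and the other below them. In lactose, the median of the list was -0.06. Of the 40 members, 2 were called higher and 5 lower there, beside 9.52% and 7.02% of all genes.

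Lipid and sterol metabolism genes were spread around 0, with 9 of 21 above it and a median of -0.06. *pldB* (TrF0767C), the gene of a phospholipase D, had the lowest value of the list, with 269 and 563 (GC) with 5068 and 7208 (GD) in Δ*res2*, against 3750.5 and 854 (GC) with 12369 and 17474 (GD) in Rut-C30. The strains did not overlap in GC or in GD, and the log2 fold change was -1.87 ± 0.53 (adjusted p = 0.932, edgeR), while in lactose it was 0.27 ± 0.14. The phospholipase E gene *ple* (TrD0987W) had 619.5 and 366 (GC) with 1469 and 1441 (GD) in Δ*res2*, against 728 and 1224 (GC) with 5365 and 1186 (GD) in Rut-C30 (log2 fold change -1.08 ± 0.45). The inositol phosphate synthase gene *ino1* (TrA0637W), which supplies inositol for phospholipids, had 8619 and 7042 (GC) with 170461 and 19946 (GD) in Δ*res2*, against 5084 and 5721 (GC) with 34985 and 23993 (GD) in Rut-C30. The first Δ*res2* culture in GD carried its log2 fold change of 1.11 ± 0.63, which was -0.08 without both first cultures of Δ*res2*. The sterol acyltransferase gene *are2* (TrE0238C) had a log2 fold change of -0.59 ± 0.54 in glucose, and in lactose it rose in Δ*res2* by 1.13 on the log2 scale (adjusted p = 0.00515, edgeR).

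Of 4 genes of enzymes that act on the fungal cell wall, 3 were below 0 (median -1.11). The α-1,3-glucanase gene TrA2134C had 114 and 88.9 (GC) with 6.19 and 24.2 (GD) in Δ*res2*, against 444 and 203 (GC) with 66.7 and 25.6 (GD) in Rut-C30, so that Δ*res2* was below Rut-C30 in each condition (log2 fold change -1.65 ± 0.52). The β-1,3-glucanase gene TrF0994W had 892 and 1662 (GC) with 348 and 207 (GD) in Δ*res2*, against 3684 and 1008 (GC) with 1961 and 466 (GD) in Rut-C30. Its GC cultures overlapped between the strains, and the log2 fold change was -1.50 ± 0.61, while in lactose the gene fell by 0.40 on the log2 scale (adjusted p = 0.00613, edgeR). The chitinase gene TrA1911W had 836 and 897 (GC) with 38.4 and 114 (GD) in Δ*res2*, against 349.8 and 2695 (GC) with 75.8 and 159 (GD) in Rut-C30, with the highest and the lowest GC culture both in Rut-C30 (log2 fold change -0.73 ± 0.61). The member above 0 was another β-1,3-glucanase gene, TrA0222W. It had 196 and 320 (GC) with 73.1 and 86.3 (GD) in Δ*res2*, against 130 and 179 (GC) with 70.8 and 92.4 (GD) in Rut-C30 (log2 fold change 0.36 ± 0.33).

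Among 4 proteases, the D-aminopeptidase gene TrF0056W (TRIREDRAFT_109234) had 1572 and 1451 (GC) with 29939.6 and 7822 (GD) in Δ*res2*, against 371 and 824 (GC) with 825 and 2511 (GD) in Rut-C30. Both conditions placed Δ*res2* above Rut-C30, with a log2 fold change of 2.42 ± 0.70 (adjusted p = 0.932 from edgeR and 0.0726 from DESeq2). The value in lactose was 0.20 ± 0.08. The secreted subtilisin gene TrC0005C had 137 and 134 in the GC cultures of Δ*res2*, against 131 and 2439 in those of Rut-C30, so its log2 fold change of -1.63 ± 1.06 rested on the second Rut-C30 culture and was 0.05 without it. The aspartic protease gene *pep2* (TrF0367C) had a log2 fold change of -0.49 ± 0.38.

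Transporter genes had 5 of 10 values above 0 and redox and stress genes 3 of 7, and none of these had an unadjusted p under 0.05. The ABC transporter gene *snq2* (TrB1077C) had 2954 and 15223 (GC) with 47316 and 29058 (GD) in Δ*res2*, against 10285 and 9302 (GC) with 21139 and 22560.2 (GD) in Rut-C30 (log2 fold change 0.35 ± 0.51), with the first Δ*res2* culture in GC below the others. The amino acid transporter gene TrB0212C had a log2 fold change of -1.01 ± 0.57 and the MFS transporter gene TrB0334W one of -0.76 ± 0.77. Another amino acid transporter gene, TrA0037W, had 5760.0 and 18.98 in the GD cultures of Δ*res2*, against 60.6 and 21.1 in those of Rut-C30, and its log2 fold change of 2.31 ± 3.11 was -1.60 without the first of these cultures. The catalase gene *cta1* (TrA0445C), whose product breaks down hydrogen peroxide, had 3.61 and 7.59 (GC) with 35.9 and 10489.5 (GD) in Δ*res2*, against 2.64 and 1.46 (GC) with 899 and 648 (GD) in Rut-C30. The Δ*res2* duplicates in GD enclosed both Rut-C30 cultures by a wide margin, and the log2 fold change of 2.40 ± 1.38 was -1.15 without the second of them. The glyoxalase gene *glo2* (TrE0525C) had a log2 fold change of 0.28 ± 0.40. The second gene of hydrogen peroxide metabolism, TrE0852C, had 1558 and 2621 (GC) with 62837 and 238421 (GD) in Δ*res2*, against 1565 and 1247 (GC) with 122467 and 117164 (GD) in Rut-C30 (log2 fold change 0.45 ± 0.47).

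The 3 genes of carbon metabolism were all above 0. The enolase gene *eno1* (TrA1058C) of glycolysis had 39687 and 52906 (GC) with 11939 and 14053 (GD) in Δ*res2*, against 42495 and 19781 (GC) with 8606 and 2942 (GD) in Rut-C30. The first GC culture of Rut-C30 lay between the Δ*res2* cultures, and in GD the strains were apart. Its log2 fold change was 0.87 ± 0.44 in glucose, and in lactose *eno1* rose in Δ*res2* by 0.68 on the log2 scale (adjusted p = 0.000243, edgeR). The nucleoside diphosphate kinase gene *ynk1* (TrA0344C) had 84943 and 32111 (GC) with 13642 and 2839 (GD) in Δ*res2*, against 23664 and 40699 (GC) with 3866 and 4612 (GD) in Rut-C30, and its log2 fold change of 0.91 ± 0.54 was -0.24 with weighted libraries. The xylulose kinase gene *xki1* (TrD0701C) had a log2 fold change of 0.25 ± 0.35. DNA repair genes, the list with the smallest median standard error (0.29), had 9 of 21 values above 0 and a median of -0.03, and all 21 intervals lay within a log2 fold change of 2 in either direction. The most abundant of them, TrD0276C, had -0.33 ± 0.33, TrG0667C had 0.18 ± 0.25 and TrD0927C had 0.48 ± 0.21. Of the remaining genes that the study names, the polyketide synthase gene *pks2* (TrD0448W) had a log2 fold change of -0.61 ± 0.42 and the receptor gene *csg1* (TrG0204C) one of -0.18 ± 0.57.

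**Figure D2:**
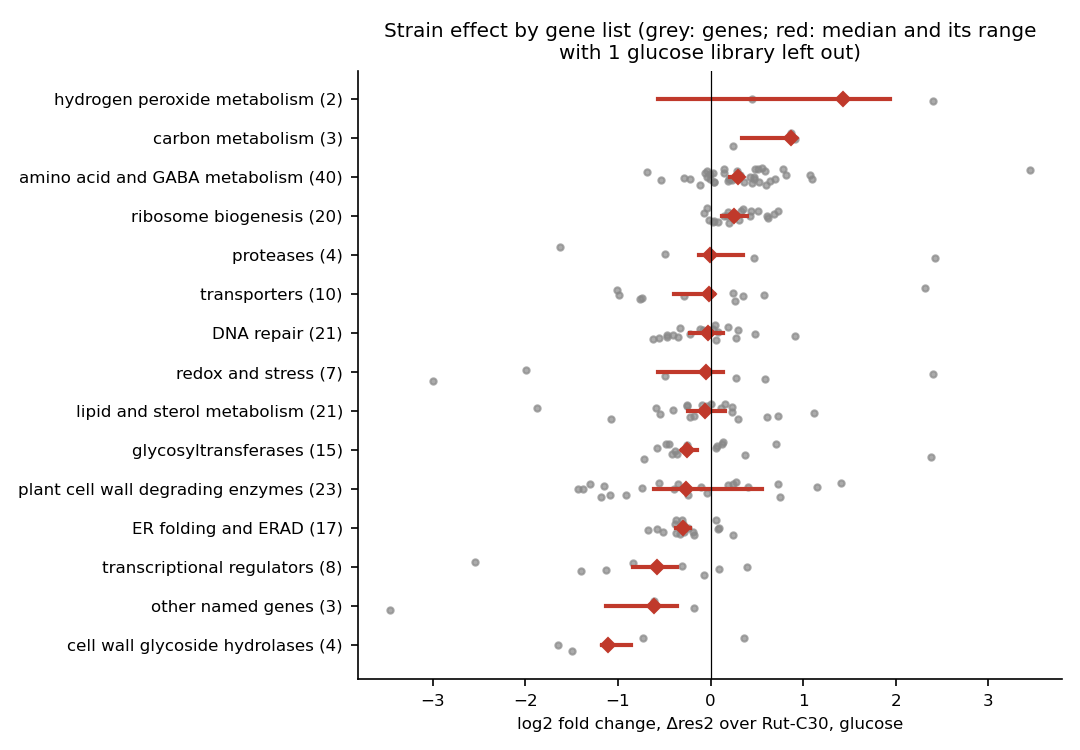
Log2 fold change of Δ*res2* over Rut-C30 in glucose (horizontal axis) for the members of each gene list (grey points, number of members in brackets), with the median (red diamond) and its range when 1 glucose library is left out (red line). The median of the plant cell wall degrading enzymes runs from -0.61 to 0.56, that of ER folding and ERAD from -0.37 to -0.22.

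**Figure D3:**
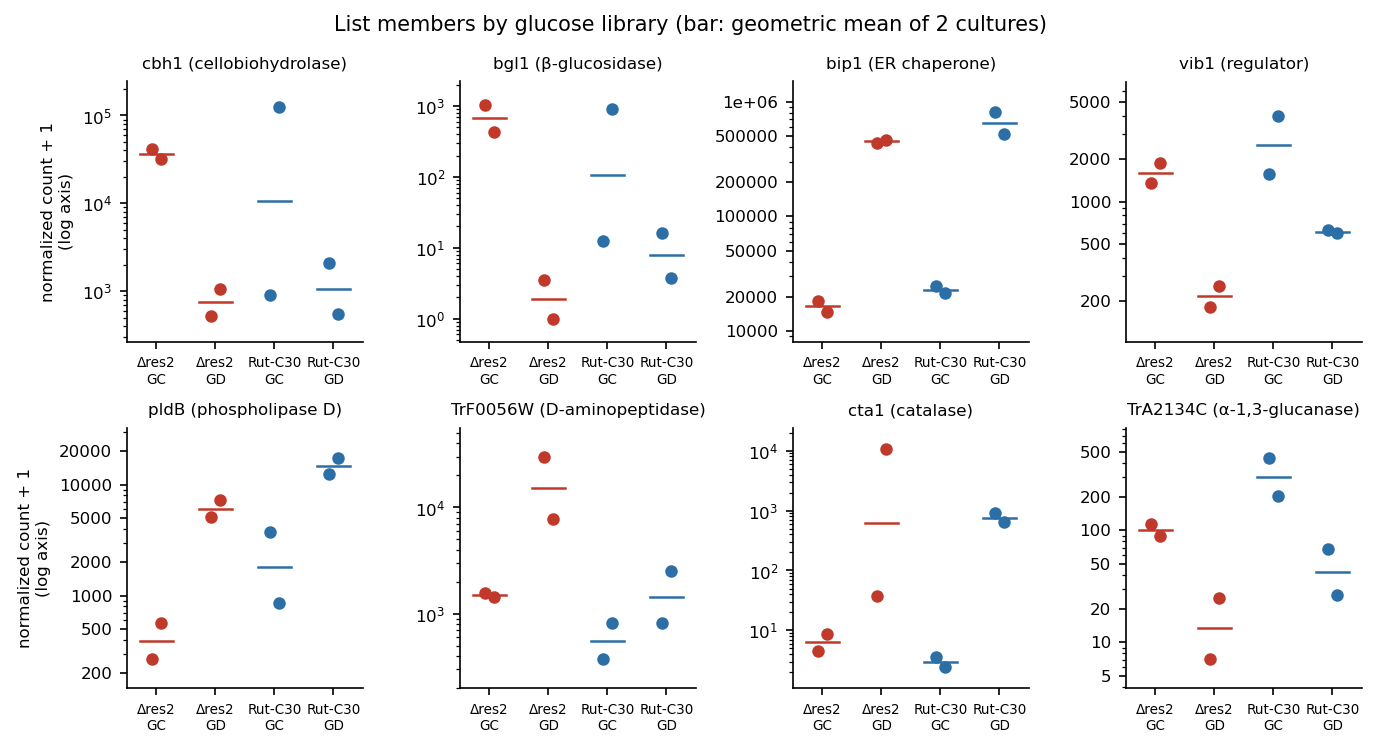
Normalized counts plus 1 (vertical axes, log scale) of 8 list members in the 8 glucose libraries, with Δ*res2* in red and Rut-C30 in blue, cultures as points and geometric means of 2 cultures as bars. *cbh1* and *bgl1* are far apart between the Rut-C30 GC cultures and *cta1* between the Δ*res2* GD cultures. In GD the strains do not overlap for TrF0056W (higher in Δ*res2*) and for *vib1*, *pldB*, *bip1*, *bgl1* and TrA2134C (lower). The *bgl1* values in GD are very low, with 2.48 and 0 in Δ*res2* against 15.2 and 2.75 in Rut-C30. Over all genes, 11.7% were wholly higher and 14.7% wholly lower in GD.

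Whether the strain effect differed between GC and GD was tested with an interaction term. No gene was called (0% at an adjusted p under 0.05, edgeR), and the unadjusted p was under 0.05 for 71 genes (0.792%), while DESeq2 called 2 genes. The errors within a condition were larger still. The median standard error was 0.51 in GC and 0.51 in GD, and that of the interaction was 0.72. With 2 cultures against 2, Δ*res2* was wholly above Rut-C30 for 1237 genes (13.8%) and wholly below for 1277 genes (14.2%) in GC, and for 1048 (11.7%) and 1320 (14.7%) in GD. TrC1550C had a log2 fold change of 3.33 ± 0.41 in GC and 1.45 ± 0.40 in GD. For *vib1* (TrE0539W) the values were -0.78 ± 0.48 in GC and -1.49 ± 0.49 in GD, for *pldB* (TrF0767C) -2.47 ± 0.75 in GC and -1.28 ± 0.72 in GD and for TrA2134C -1.67 ± 0.77 in GC and -1.63 ± 0.83 in GD. Most of these genes were described above for strains that were apart in the same direction in both conditions, so their equal signs are no result. Other named genes had opposite signs, such as the transporter gene TrA0037W with -1.94 ± 1.88 in GC and 6.14 ± 2.10 in GD, and *sec14* (TrG0115C), the gene of a phosphatidylinositol transfer protein, with -0.44 ± 0.39 in GC and 0.66 ± 0.39 in GD. These differences were not called either.

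The duplicate cultures were unequal. The 2 cultures of a group differed by more than 1 on the log2 scale for 1921 genes in GC (21.4%) and 3514 genes in GD (39.2%) of Δ*res2*, and in Rut-C30 for 1651 in GC (18.4%) and 1423 in GD (15.9%). In the lactose groups, measured in the same way, these shares were 1.98% and 2.90% in Δ*res2* and 2.15% and 1.48% in Rut-C30 (LC and LD). The biological coefficient of variation, which the test uses as the spread between cultures, was 0.475 in glucose and 0.0867 in lactose. When each library was weighted by its fit, the first cultures of Δ*res2* had the lowest weights, 0.416 in GC and 0.194 in GD, and the other 6 libraries had weights between 1.01 and 2.14. Without the first GD culture of Δ*res2* the coefficient of variation was 0.398, the genes at an unadjusted p under 0.05 numbered 854 in place of 340, and TrA1112W was still the 1 gene called. Without both first cultures of Δ*res2* there were 686 such genes and no call (chosen after seeing the data). On the lists that follow, the duplicates of the 2 strains parted differently. Within Rut-C30, the differences between duplicates in GC and in GD correlated across genes (Pearson's r = 0.63). Plant cell wall degrading enzymes differed by a median of -0.38 between the Δ*res2* cultures in GC (second over first, log2) and by 3.62 between those of Rut-C30. In GD, the 2 genes of hydrogen peroxide metabolism differed by a median of 5.04 between the Δ*res2* cultures and of -0.27 between the Rut-C30 cultures. The median of 5.04 lies midway between unlike values. *cta1* had 35.9 and 10489.5 in these Δ*res2* cultures, and TrE0852C had 62837 and 238421.

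**Figure D4:**
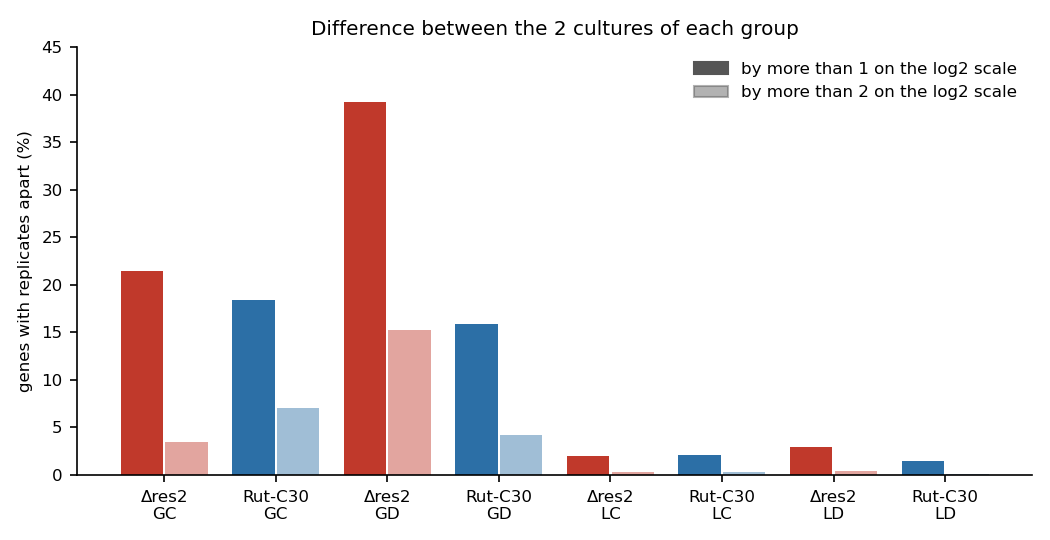
Share of genes (vertical axis, percent) whose 2 cultures differed by more than 1 (full colour) or more than 2 (pale) on the log2 scale, for each group of Δ*res2* (red) and Rut-C30 (blue). The share beyond 1 is 15.9% to 39.2% in the glucose groups and 1.48% to 2.90% in the lactose groups.

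Coding length moved with both the duplicates and the strains. Across the 8809 genes with a length in the annotation (8732 in the lactose fit), Spearman's rho of coding length with the log2 difference between cultures was 0.51 in GC of Δ*res2* (second over first), -0.17 in GD of Δ*res2*, -0.05 in the Rut-C30 cultures of GC and -0.03 in those of GD. With the strain effect rho was -0.29 in the glucose fit and between -0.36 and -0.09 with 1 library left out (-0.09 without the first GC culture of Δ*res2*, -0.36 without its second), and -0.25 in the lactose fit. Longer genes were relatively lower in the first GC culture of Δ*res2* than in its duplicate. These are descriptions across genes, which are not independent replicates, and the part of coding length in the strain effect was not tested.

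The library numbers set a second limit. All 4 Rut-C30 glucose libraries carry numbers of a 2021 series, whereas the 4 Δ*res2* glucose libraries and all 8 lactose libraries carry numbers of a 2022 series. What the numbers stand for is not given in the sources used here, and the labels state that the 16 libraries were run on 2 flow cells without saying which library was on which. In glucose, strain and number series coincide, so that no value within a series can be had and a strain effect and a difference between the series cannot be told apart from the glucose libraries. For TrA1112W the lactose libraries bear on this directly, since within the 2022 series its raw counts were 0 to 2 in Δ*res2*, against 3177 to 7046 in Rut-C30. In the principal components of the 8 libraries, the strains overlapped on each of the 7 components. The first component (57.1% of the variance) separated GD from GC. All 4 Rut-C30 libraries were most like a Δ*res2* library of the same condition, with Pearson's r across genes between 0.946 and 0.962. The lower total counts of Δ*res2* in glucose coincide with the number series as well.

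The lactose libraries, with both strains in the 2022 series, come from other cultures of the same strains. There, 1470 of 8889 genes were called (16.5%), 846 higher (9.52%) and 624 lower (7.02%) in Δ*res2*. The strains did not overlap over the 8 lactose libraries for 377 genes (4.24%), 237 higher (2.67%) and 140 lower (1.57%), beside 104 genes (1.16%) in glucose. Without TrA1112W, 845 genes called higher and 620 called lower in lactose were also tested in glucose. The genes higher in lactose had a median log2 fold change of 0.48 there and 0.19 in glucose, where 68.2% were above 0, against 50.9% of all genes tested in both. The genes lower in lactose had a median of -0.27 there and -0.21 in glucose, where 28.7% were above 0. For 768 of the 845 and 592 of the 620, the 95% interval in glucose held the lactose value, and for 801 and 592 it held 0. Of the 43 genes whose glucose libraries lay wholly higher in Δ*res2*, 8 were called higher and 1 lower in lactose, and of the 58 that lay wholly lower, 10 were called lower and 1 higher. Over all 8793 genes, Pearson's r between the 2 strain effects was 0.17 and Spearman's rho was 0.22 (across genes, which share the libraries of each fit).

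**Figure D5:**
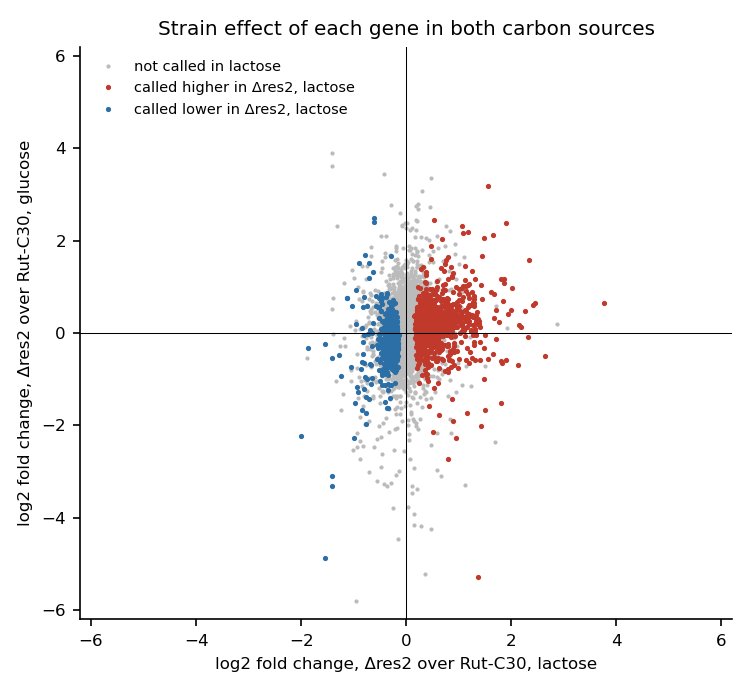
Log2 fold change of Δ*res2* over Rut-C30 for each gene in glucose (vertical axis) and in lactose (horizontal axis), without TrA1112W. Red genes were called higher and blue genes lower in Δ*res2* in lactose, with medians in glucose of 0.19 and -0.21, and grey genes were not called in lactose.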

How the data were processed

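Gene expression was measured with poly(A)+, stranded single-read RNA-seq of mycelium from fed flask cultures. The authors trimmed and filtered the reads in Eoulsan, aligned them with STAR 2.7.8a to the QM6a genome, removed reads with several alignments and counted overlaps with coding sequences of their own annotation with HTSeq-count 0.5.3. The deposited files hold these raw counts for 10008 genes in each library. The strand mode of the counting is not given in the sources used here, so that overlapping genes on opposite strands may share reads, and near-identical copies lose reads with the multiple alignments.

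The 8 glucose libraries were fitted alone with edgeR 4.0.16 (R 4.3.3; TMM scaling, default filter on low counts, robust quasi-likelihood test, strain and DTT as terms, 5 residual degrees of freedom), after a check of the code on simulated data. P-values were adjusted over all 8966 genes that passed the filter (8889 in the lactose fit), and a gene was called at an adjusted p under 0.05. In this fit the p-values measure the spread of cultures around the terms for strain and DTT. That spread includes the difference between duplicate cultures and any interaction of strain and DTT. A separate fit added the interaction of strain and DTT. DESeq2 1.42.0, limma 3.58.1 and the other alternatives are given in the closing section. The submitters' processing notes name DESeq2 1.8.1. The study's supplementary tables of differentially expressed genes pair 1729 genes with TRIREDRAFT identifiers, 1724 of which were found in RefSeq. A gene outside those tables had no such identifier or RefSeq name here. Positions are those of the deposited QM6a annotation. Named genes were those around the deleted gene, the 5 of each direction with the smallest p whose strains did not overlap at a mean of at least 100 normalized counts, and the 2 to 4 most abundant members of each list. The members and the gene lists were chosen with earlier results of these data known. Intervals on counts cover counting error only.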

Additional observations from a re-analysis of the deposited data

Results flagged for a closer look

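For 2 of the genes described, 1 glucose library met a gap test against the other 3 of its strain (Dixon's test on log2 normalized counts plus 1, which chance meets in about 1 of 20 groups). For TrA1112W the gap as a share of the whole range was 1 among the Δ*res2* libraries, where the second GC culture had 2 raw counts and the other libraries 0. With 3 libraries at 0 any single count above 0 gives this share, so it does not show a library that stands apart. For TrC1544W this share was 0.849 among the Rut-C30 libraries, where the first GD culture had 859 normalized counts and the others 366 to 417.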

How the results depend on the processing

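One choice was changed at a time. TrA1112W, the 1 gene called in glucose, kept its direction in every setting. Values without a call, such as those of *cta1* and *ynk1*, changed sign in some settings. The count of 1 called gene was 12 with DESeq2, 4 in a fit of all 16 libraries, 0 in GC alone and 0 in GD alone (178 and 111 genes at an unadjusted p under 0.05). It was 0 without both Δ*res2* libraries numbered 1, a choice made after seeing the data. It was 1 in each of the fits that left out 1 library, in which 162 (without the first GD culture of Rut-C30) to 854 genes (without the first GD culture of Δ*res2*) had an unadjusted p under 0.05, in place of 340, with 225 and 595 without the first and the second GC culture of Δ*res2*. At the limits of the study, 1 gene passed in the fit reported, 3 with DESeq2, 2 with all 16 libraries, 0 with a mean for each group, 0 in GC alone, 0 in GD alone, 0 without both Δ*res2* libraries numbered 1, and 0 to 1 with 1 library left out. The 0 genes called for the interaction became 2 with DESeq2. The 1470 genes called in lactose became 915 to 1304 with 1 library left out, with the lowest counts without the first (915) or second (944) LC culture of Δ*res2*, its first LD culture (932) or the first LD culture of Rut-C30 (929). TrA1112W was called in 18 of 21 settings, with adjusted p between 4.54e-30 and 0.479. Scaling moved the median log2 fold change of all genes to 0.04 with the size factors of DESeq2 and to -0.06 with library totals, against 0.01 with TMM. The cause of these shifts was not tested. Fits that left libraries out differed from the full fit both in the number and in the choice of libraries.

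The replicate numbers did not pair the samples across strains, since the correlation of the replicate differences was -0.27 to -0.05 between strains. Within Rut-C30 it was 0.63 between GC and GD, so that the same-numbered Rut-C30 libraries deviated together and its 4 libraries may not be independent, and within Δ*res2* it was -0.02. With the replicate block, 1 gene was called (TrA1112W, adjusted p = 0.0114 from edgeR), 0 passed the limits of the study and 311 had an unadjusted p under 0.05. This block is 1 term shared by both strains, so it cannot test a deviation within Rut-C30 alone. The 5 residual degrees of freedom, the spread of the glucose duplicates and the single clone limit what could be detected.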

Other observations

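The 2 genes that DESeq2 called for an interaction of strain and DTT in glucose had opposite strain differences in the 2 conditions. TrG1002W (TRIREDRAFT_56897) had 3.61 and 8.68 (GC) with 621 and 1109.5 (GD) normalized counts in Δ*res2*, against 37.0 and 8.78 (GC) with 18.2 and 21.1 (GD) in Rut-C30. In GD the Δ*res2* cultures were far above those of Rut-C30, and in GC they were below, one of them by little. The interaction on the log2 scale was 7.34 ± 1.15 in edgeR, without a call, and 7.40 in DESeq2 (adjusted p = 9.69e-07). TrE1107C (TRIREDRAFT_53503) had 9.93 and 14.1 (GC) with 2658 and 1620.3 (GD) in Δ*res2*, against 44.1 and 26.3 (GC) with 467 and 569 (GD) in Rut-C30. Its groups were ordered in the same way, with an interaction of 3.59 ± 0.62 in edgeR, again without a call, and 3.63 in DESeq2 (adjusted p = 0.0164). Both genes were chosen after their values were seen.

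Genes whose 4 Δ*res2* libraries did not overlap with the 4 of Rut-C30 lay on all 7 chromosomes. Chromosome II had the most of them, with 9 higher and 17 lower in Δ*res2* among 1655 genes tested, and chromosome VI the fewest, with 3 higher and 2 lower among 859. Over all genes tested these shares were 0.491% higher and 0.669% lower, and the counts per chromosome were not tested. No 3 neighbouring genes of the annotation were separated in the same direction.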
